A study of Trichoderma reesei with 4 samples.

Results

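The 7 genes described here encode xylanases and a beta-xylosidase of the filamentous ascomycete Trichoderma reesei. They were chosen by identifier from the 9126 features of the array, and all 7 were found there. They were xyn1 (TRIRE2_74223), xyn2 (TRIRE2_123818) and xyn5 (TRIRE2_112392), which encode xylanases of glycoside hydrolase family GH11, and xyn3 (TRIRE2_120229), which encodes one of family GH10. The others were xyn4 (TRIRE2_111849) and TRIRE2_69276, which encode xylanases of family GH30, and bxl1 (TRIRE2_121127), which encodes a beta-xylosidase of family GH3. The names and families came with these identifiers, and the gene table used for all other genes lists the 7 without a symbol.

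Xylan, the main hemicellulose of many plant cell walls, is a backbone of xylose units that carries acetyl and sugar side groups. Endoxylanases cut the backbone into shorter pieces, beta-xylosidase releases xylose from their ends, and side-chain enzymes such as acetyl xylan esterases take off the substituents. In T. reesei the genes of these enzymes are known to depend on the activator Xyr1, which also drives the cellulase genes, and to be repressed through Cre1 on easily used sugars.

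All samples came from strain QM9414, an early cellulase-producing mutant that the labels describe as a low producer. Cultures were grown on malt extract agar plates over cellophane, and no xylan is named in the labels. Whether the medium or the cellophane acted on these genes was not tested. The 4 groups were mycelium taken as the control (0 h) and cultures 3, 6 and 9 h into sporulation, each with 2 biological replicas, and no culture without sporulation was sampled at the later times. A change due to sporulation and one due to time in culture therefore cannot be told apart. The cultures contained whole mycelium, so fewer cells of one type and less RNA per cell cannot be told apart either.

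The deposited table gives, for each feature and time, a mean log2 expression with the SD between replicas, and levels below are these means ± SD (n = 2). The replica values named below follow from that mean and SD. Median levels over all features lay between 11.53 and 11.56 at the 4 times, and median SDs between 0.0821 and 0.0992. With 2 arrays per time, precision is limited throughout. The gene lxr1, whose enzyme the submitters used as the marker of conidiation, was at 11.96 ± 0.2 in mycelium, 13.33 ± 0.12 after 3 h, 13.94 ± 0.14 after 6 h and 13.89 ± 0.12 after 9 h. As a gauge of background, 3 features of the mating-type locus MAT1-1, which strains of this lineage do not carry, had means between 4.0 and 5.53, and the highest mean of any feature was 15.93. A gene was called changed when limma's moderated test gave an adjusted p under 0.05 (Benjamini-Hochberg over all features) and the change was at least 2-fold, a log2 change of 1.

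Expression of the xylanase and beta-xylosidase genes peaked at 3 h. All 7 had their highest mean at this time, against 18.9% of all features. At 3 h 6 of the 7 rose, against 6.77% of all features called higher in that comparison, and by 6 h all 7 had fallen from their 3 h level, against 2.62% called lower. Thereafter xyn2, xyn3, TRIRE2_69276 and bxl1 stayed above the mycelium, and xyn1, xyn4 and xyn5 did not.

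**Figure D1:**
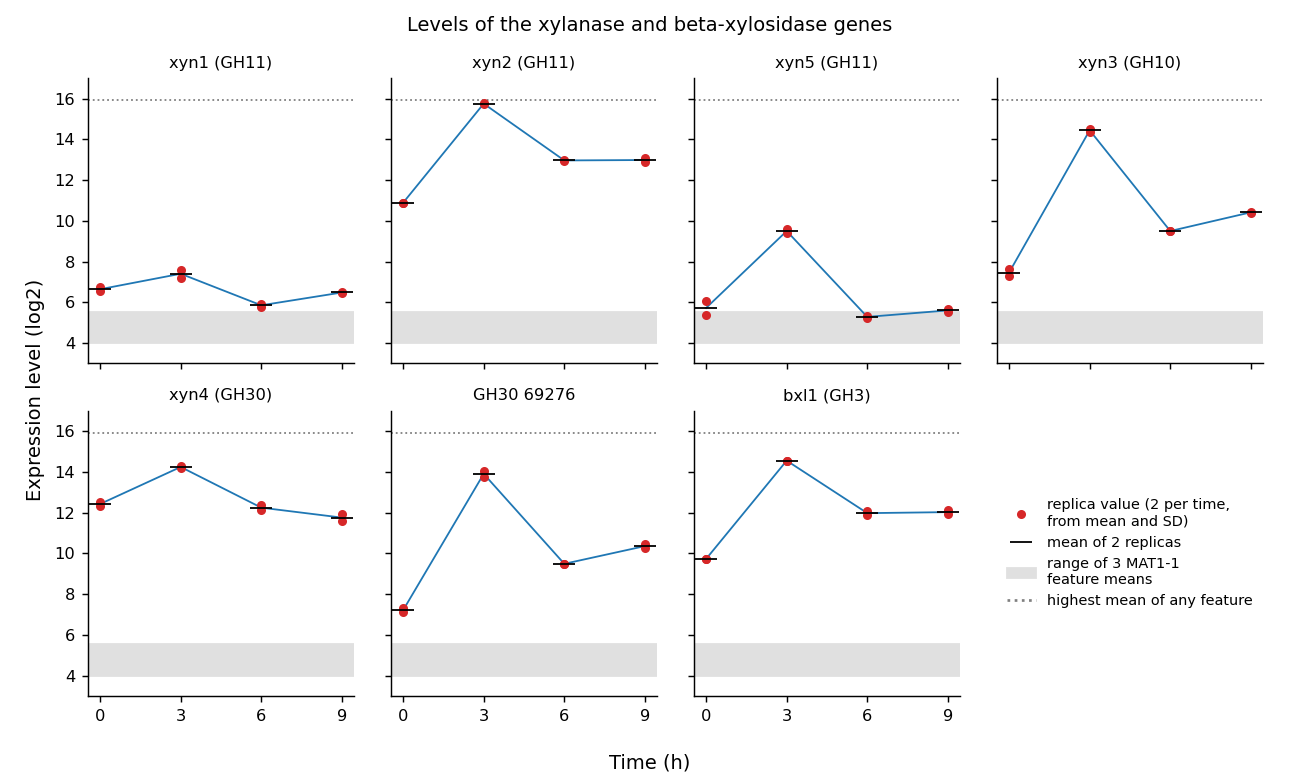
Expression level (log2) of the 7 genes at 0, 3, 6 and 9 h; red points are the 2 replica values that follow from the deposited mean and SD, black bars are means, the grey band spans the MAT1-1 means (4.0 to 5.53) and the dotted line marks the highest mean of any feature (15.93). Each gene is highest at 3 h, xyn2 close to the dotted line, and xyn5 lies at or just above the grey band at the other 3 times.

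Among the GH11 xylanases, xyn2, which encodes a major secreted endoxylanase of the fungus, was at 10.89 ± 0.024 in mycelium, 15.76 ± 0.027 after 3 h, 12.97 ± 0.031 after 6 h and 12.99 ± 0.15 after 9 h. Both replicas at 3 h, 15.74 and 15.78, lay above all replicas of the other times, and those of 6 h (12.95 and 13) fell inside the span of those of 9 h (12.88 and 13.1). The gene rose 29.2-fold at 3 h (log2 change 4.87 ± 0.1 SE, adjusted p = 5.75e-08). Its 3 h mean was 15.76 where the highest of any feature was 15.93, and whether the upper end of the scale limits the size of this rise was not tested. By 6 h it had fallen 6.88-fold from its 3 h level (adjusted p = 3.27e-06), which left it 4.25-fold above mycelium at 6 h (adjusted p = 4.11e-06) and 4.29-fold at 9 h (adjusted p = 3.09e-06). Between 6 and 9 h its log2 change was 0.01, with a 95% interval from -0.22 to 0.25.

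The second GH11 gene, xyn5, was at 5.72 ± 0.5 in mycelium, 9.5 ± 0.15 after 3 h, 5.28 ± 0.07 after 6 h and 5.6 ± 0.099 after 9 h. Its replicas at 3 h, 9.4 and 9.61, stood apart from the rest, and those of 0 h (5.36 and 6.08) spanned both of 9 h (5.53 and 5.67). The level at 6 h lay within the MAT1-1 range and that at 9 h only 0.07 above it, so the gene was measured well above background at 3 h alone and the sizes of its changes are not exact. It rose by 3.78 ± 0.21 (SE) on the log2 scale at 3 h (adjusted p = 6.48e-06), and its log2 change from 3 to 6 h was -4.22 (adjusted p = 1.69e-05), or -3.97 with levels under the MAT1-1 maximum raised to it. At 6 and 9 h its changes against mycelium were -0.44 (95% interval -0.92 to 0.05) and -0.12 (-0.6 to 0.37), and neither passed the test.

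The third GH11 gene, xyn1, was dim throughout and moved least over the 4 times. Its level was 6.64 ± 0.12 in mycelium, 7.4 ± 0.29 after 3 h, 5.85 ± 0.11 after 6 h and 6.48 ± 0.058 after 9 h. The replicas of different times did not overlap, although those of 0 h (6.56 and 6.73) and 9 h (6.44 and 6.52) were only 0.04 apart. At 3 h it was 1.69-fold above mycelium (adjusted p = 0.00458), short of 2-fold, and it is the gene of the 7 not called at 3 h. It fell 2.93-fold from 3 to 6 h (log2 change -1.55 ± 0.15 SE, adjusted p = 3.91e-04). The 6 h level was 1.74-fold below mycelium (adjusted p = 0.00419), again under 2-fold, and 0.31 above the highest MAT1-1 mean. The log2 change of 9 h against 0 h was -0.16 (95% interval -0.51 to 0.18).

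The GH10 gene xyn3, whose enzyme was first described from a mutant of the same lineage with high enzyme secretion, had the largest rise of the 7. Its level was 7.46 ± 0.24 in mycelium, 14.45 ± 0.095 after 3 h, 9.5 ± 0.016 after 6 h and 10.42 ± 0.05 after 9 h. The 4 times were all separate, with replicas of 7.29 and 7.64 in mycelium, then 14.38 and 14.52, then 9.49 and 9.51, and at last 10.39 and 10.46. At 3 h the gene was 127-fold above mycelium (log2 change 6.99 ± 0.13 SE, adjusted p = 2.99e-08). It then fell 31-fold to 6 h (adjusted p = 5.95e-07), to a level 4.09-fold above mycelium (adjusted p = 1.42e-05). At 9 h it was 7.77-fold above mycelium (adjusted p = 1.67e-06). The difference between 6 and 9 h was 0.92 log2 units, with an adjusted p of 0.00594 and a size just under 2-fold.

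The GH30 gene TRIRE2_69276 followed nearly the same course. Its level was 7.21 ± 0.13 in mycelium, 13.91 ± 0.2 after 3 h, 9.49 ± 0.007 after 6 h and 10.36 ± 0.14 after 9 h. No replicas of different times overlapped, and the order of the times was the same as for xyn3. It rose 104-fold at 3 h (log2 change 6.7 ± 0.13 SE, adjusted p = 3.88e-08) and fell 21.4-fold to 6 h (adjusted p = 9.88e-07). It was still 4.86-fold above mycelium at 6 h (adjusted p = 9.10e-06) and 8.92-fold at 9 h (adjusted p = 1.37e-06). From 6 to 9 h its level differed by 0.88 log2 units (adjusted p = 0.00767), also under 2-fold.

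The other GH30 gene, xyn4, differed from it in its course. It was already at 12.43 ± 0.14 in mycelium, and stood at 14.25 ± 0.078 after 3 h, 12.25 ± 0.16 after 6 h and 11.76 ± 0.22 after 9 h. Only the 3 h replicas, 14.2 and 14.31, lay apart from the mycelium by more than 1 log2 unit, and those of 6 h (12.14 and 12.36) overlapped those of 0 h (12.33 and 12.52). The rise at 3 h was 3.55-fold (log2 change 1.83 ± 0.14 SE, adjusted p = 3.55e-05), and the fall to 6 h was 4.02-fold (adjusted p = 7.99e-05). At 6 h its change against mycelium was -0.18 (95% interval -0.5 to 0.15) and did not pass. At 9 h it was at -0.66 (adjusted p = 0.00578), a value below mycelium that did not reach 2-fold.

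The beta-xylosidase gene bxl1, whose enzyme releases xylose from xylo-oligosaccharides, was at 9.73 ± 0.0025 in mycelium, 14.56 ± 0.0093 after 3 h, 11.98 ± 0.13 after 6 h and 12.03 ± 0.1 after 9 h. The replicas of 6 h (11.89 and 12.07) and 9 h (11.96 and 12.11) overlapped, and all other times were separate. The gene rose 28.4-fold at 3 h (log2 change 4.83 ± 0.1 SE, adjusted p = 6.01e-08) and fell 5.96-fold to 6 h (adjusted p = 5.68e-06). It was 4.76-fold above mycelium at 6 h (adjusted p = 2.82e-06) and 4.94-fold at 9 h (adjusted p = 2.05e-06). From 6 to 9 h the log2 change was 0.05, with a 95% interval from -0.19 to 0.29.

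**Figure D2:**
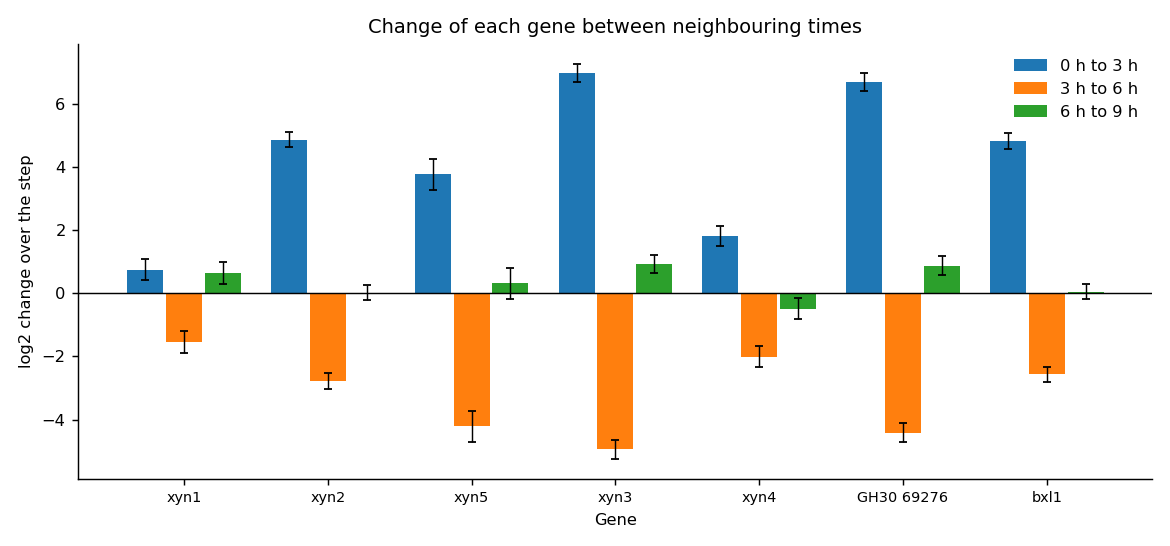
Change of each gene between neighbouring times, in log2 units, with 95% intervals from limma's moderated variance; the bars of each gene are the steps from 0 to 3 h, 3 to 6 h and 6 to 9 h. All bars from 0 to 3 h are positive and all from 3 to 6 h negative, and from 6 to 9 h they lie between -0.49 (xyn4) and 0.92 (xyn3).

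Over the group, the log2 change at 3 h ranged from 0.75 for xyn1 to 6.99 for xyn3, with a median of 4.83, where the median of all features was -0.05. Replicas of 3 h and 0 h did not overlap for any of the 7, but this held for 69.9% of all features and sets nothing apart. At 6 h the same comparison with mycelium called 4 of 7 higher, against 6.68% of all features, with a median of 2.03 over the group. At 9 h 4 of 7 were higher, against 7.48% of all features, and the median was 2.1. At both times these were xyn2, xyn3, TRIRE2_69276 and bxl1, and 0 of 7 were lower at either time, against 4.27% of all features at 6 h and 5.40% at 9 h. By the F test over all 3 comparisons with 0 h, together with a change of at least 2-fold, 6 of 7 were changed at some time, against 18.9% of all features. The exception was xyn1, whose F test passed (adjusted p = 4.57e-04) but whose changes from mycelium stayed under 2-fold. The comparisons with 0 h share the same mycelium arrays. In the authors' deposited table the p-values of the 7 genes ran from 0.000827 for xyn2 to 0.0178 for xyn1.

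The step from 3 to 6 h was a fall for every gene of the group, from 2.93-fold for xyn1 to 31-fold for xyn3, with a median log2 change of -2.78. Both a rise at 3 h and a fall to 6 h were called for 6 of 7 genes and for 1.47% of all features. From 6 to 9 h 0 of 7 passed both thresholds, against 1.93% of all features. In this step limma's unadjusted p was under 0.05 for 4 of the 7. The share of all features under that value was not computed, so this count sets nothing apart. By adjusted p alone, which 13.3% of all features passed, xyn1, xyn3 and TRIRE2_69276 were higher at 9 h. The difference in xyn1 was 0.63 (adjusted p = 0.0325). The log2 difference of xyn4, -0.49, was the only negative one and missed the threshold (adjusted p = 0.059). Between 3 and 9 h 6 of 7 were lower, against 3.50% of all features. Those 6 had log2 changes from -4.03 for xyn3 to -2.49 for xyn4. The change of xyn1, -0.91, passed the adjusted p (0.00325) and ended short of 2-fold.

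The order of the 4 levels took more than one form. In xyn3 and TRIRE2_69276 it was 3, 9, 6 and 0 h, and each neighbouring pair passed the adjusted p. In xyn2 and bxl1 the order was the same, but the pair of 9 and 6 h did not pass. In xyn1 and xyn5 the order was 3, 0, 9 and 6 h. The pair of 0 and 9 h did not pass the adjusted p in either gene, nor did that of 9 and 6 h in xyn5. Replicas did not overlap between 0 and 9 h in xyn1, or between 9 and 6 h in xyn5. In xyn4 the order was 3, 0, 6 and 9 h, and among the last 3 no neighbouring pair passed. On the log2 scale, the share of the 3 h rise still present at 6 h was 29.1% for xyn3, 34% for TRIRE2_69276, 42.9% for xyn2 and 46.7% for bxl1. At 9 h it was 42.3%, 47.1%, 43.2% and 47.7% for the same genes. These are ratios of log2 changes and not shares of transcript amount. From 3 to 6 h the fold above mycelium went from 127 to 4.09 for xyn3 and from 28.4 to 4.76 for bxl1. Differences between genes in these shares were not tested.

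How alike the genes were was measured by the distance between their profiles, the Euclidean distance over the 3 log2 changes against 0 h. The closest pair was xyn2 and bxl1, at 0.26, and the next was xyn3 and TRIRE2_69276, at 0.43. In this measure, genes of one family were not each other's nearest. The GH30 genes xyn4 and TRIRE2_69276 lay 6.66 apart, and the GH11 genes xyn1 and xyn2 lay 5.51 apart, with xyn5 at 3.05 from xyn1 and 3.53 from xyn2. All distances use the same arrays and describe these means only.

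The gene table gives a symbol for 235 features, and features without one are not named here. Among genes with a symbol outside the group, the one nearest to the median profile of the 7 was the endoglucanase gene cel7b, at a distance of 0.88. Its log2 changes were 5.1, 1.2 and 2.24 at 3, 6 and 9 h. It was followed by the mannanase gene man5a at 1.3, the beta-glucosidase gene cel3a at 1.76, the cellobiohydrolase gene cel7a at 1.85 and the hydrophobin gene hfb2 at 2.13. Counting features with and without a symbol, 5 lay nearer than cel7b, 10 nearer than man5a, 26 nearer than cel3a, 28 nearer than cel7a and 44 nearer than hfb2. The gene cel7b was also the nearest named gene to xyn2 (0.92), bxl1 (1.09) and xyn3 (2.18). Nearest to xyn2 after it were man5a (1.34) and cel3a (1.81), and nearest to bxl1 were man5a (1.24) and cel7a (1.61). For TRIRE2_69276 the nearest were cel61a (2.02), cel61b (2.05) and cel7b (2.13), and for xyn3 cel61b (2.26) and cel61a (2.44) came after cel7b. The genes cel61a and cel61b encode lytic polysaccharide monooxygenases.

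The 3 genes that did not stay above mycelium had other neighbours. Nearest to xyn4 was the chitinase gene chi18-8 (0.4), whose lowest mean of 4.28 lay within the MAT1-1 range, then mata1 (0.67) and the D-xylose reductase gene xyl1 (1.05), which had 41 features nearer to xyn4 than itself. Nearest to xyn5 were the superoxide dismutase gene sod1 (1.56), the beta-glucosidase gene cel3c (1.75) and chi18-8 (1.87). Nearest to xyn1 were the N-acetylglucosaminidase gene nag1 (0.65), the protein disulfide isomerase gene pdi1 (0.65) and the chaperone gene bip1 (0.66). Another 53 features, all without a symbol, were nearer to xyn1 than nag1.

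The rest of the xylan pathway was examined through lists of genes with a symbol. Of 9 genes sought for side-chain removal 3 were found. The acetyl xylan esterase gene axe1 was at 6.64 ± 0.035 in mycelium, 14.98 ± 0.047 after 3 h, 10.61 ± 0.23 after 6 h and 10.97 ± 0.13 after 9 h, with log2 changes of 8.34, 3.97 and 4.33 against mycelium, all called. The glucuronoyl esterase gene cip2 reached 13.99 ± 0.08 at 3 h from 5.04 ± 0.019, a value within the MAT1-1 range. The acetyl xylan esterase gene axe2 was high at all times, from 13.55 to 14.04, and its changes stayed under 2-fold. Thus 2 of 3 side-chain genes were higher at each of 3, 6 and 9 h, against 6.77%, 6.68% and 7.48% of all features. The same number fell from 3 to 6 h, against 2.62% of all features.

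Of 9 genes sought for the use of the released pentoses, 5 were found. At 3 h 2 of them were higher, against 6.77% of all features, with a list median log2 change of 0.42. At 6 and 9 h 1 was higher, lxr1, with changes of 1.98 and 1.93. Of all features 6.68% and 7.48% were called higher then, and a count of 1 is too small to set the list apart. The D-xylose reductase gene xyl1, which encodes the first step of xylose use, was at 13.65 ± 0.14 in mycelium, 14.89 ± 0.068 after 3 h, 13.92 ± 0.032 after 6 h and 13.73 ± 0.026 after 9 h. Its 3 h replicas were the highest, and it rose 2.36-fold (adjusted p = 5.37e-05). Its change from 3 to 6 h was -0.97, just under 2-fold, and from 3 to 9 h it fell 2.24-fold (adjusted p = 1.49e-04). The xylitol dehydrogenase gene xdh1 was 0.42 above mycelium at 3 h and did not pass (adjusted p = 0.0989), and it was 2.16-fold lower at 9 h than at 3 h (adjusted p = 0.00333). The L-arabinitol dehydrogenase gene lad1 had a log2 change of -0.02 at 3 h and -0.97 at 9 h, under 2-fold at both. The glycerol dehydrogenase gene gld1, also listed by its symbol, was at -0.35 at 3 h. The other member called at 3 h, lxr1, is the marker gene given above, and its change then was 1.37. It was listed by its symbol, and whether its enzyme acts in pentose use was not tested. No other gene of the list was called at 6 or 9 h.

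Of 11 regulators of xylanase genes sought, 6 were found. At 3 h 1 of the 6 was called, against 6.77% of all features called higher, a count too small to set the list apart. The called gene was xyr1, at 12.45 ± 0.0042 in mycelium, 13.55 ± 0.016 after 3 h, 13.05 ± 0.11 after 6 h and 13.23 ± 0.061 after 9 h. Its level was highest at 3 h, and its rise was 2.15-fold (adjusted p = 7.15e-05). At 6 and 9 h it was 0.6 and 0.78 above mycelium, and its log2 change from 3 to 6 h was -0.5 (adjusted p = 0.00958), all under 2-fold. The repressor gene cre1 was 0.42 above mycelium at 3 h and 0.63 at 9 h, and ace1, another repressor gene, was 0.02 and 0.22 above, all under 2-fold. The log2 changes of hap2, hap3 and hap5, which encode subunits of the CCAAT-binding complex, lay between 0.01 and 0.25 at 3 h. No regulator was called at 6 or 9 h, when 6.68% and 7.48% of all features were called higher. From 3 to 6 h none of the 6 was called either, against 2.62% of all features called lower. By adjusted p alone, which 39.4% of all features passed at 6 h, xyr1 and cre1 were higher at that time. At 9 h, when 47.7% of all features passed the adjusted p, xyr1, cre1 and hap2 did so, hap2 with a log2 change of 0.7 (adjusted p = 0.00111).

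Cellulase genes were taken for comparison because they too are known targets of Xyr1. Of 11 sought, 8 were found. At 3 h 7 of 8 were higher, with a list median of 6.41, beside 6 of 7 and 4.83 for the xylanase and beta-xylosidase genes. At 6 h the count was still 7 of 8 with a median of 3.64, beside 4 of 7 and 2.03, and at 9 h 7 of 8 with 4.19, beside 4 of 7 and 2.1. Of all features, 6.77% were called higher at 3 h, 6.68% at 6 h and 7.48% at 9 h. From 6 to 9 h 4 of the 8 listed genes were called higher, beside 0 of 7 and 1.12% of all features, with medians of 0.94 and 0.32. This contrast in counts lies close to the 2-fold threshold. The 4 called changes ran from 1 for cel12a to 1.21 for cel5a. Just under it, xyn3 (0.92), TRIRE2_69276 (0.88) and cel7a (0.87) passed the adjusted p alone. In the step from 3 to 6 h 7 of the 8 listed genes fell, with a median of -3.11, beside 7 of 7 and -2.78. In that step 2.62% of all features were called lower. These are counts and medians of short lists, and the difference between the lists was not tested.

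**Figure D3:**
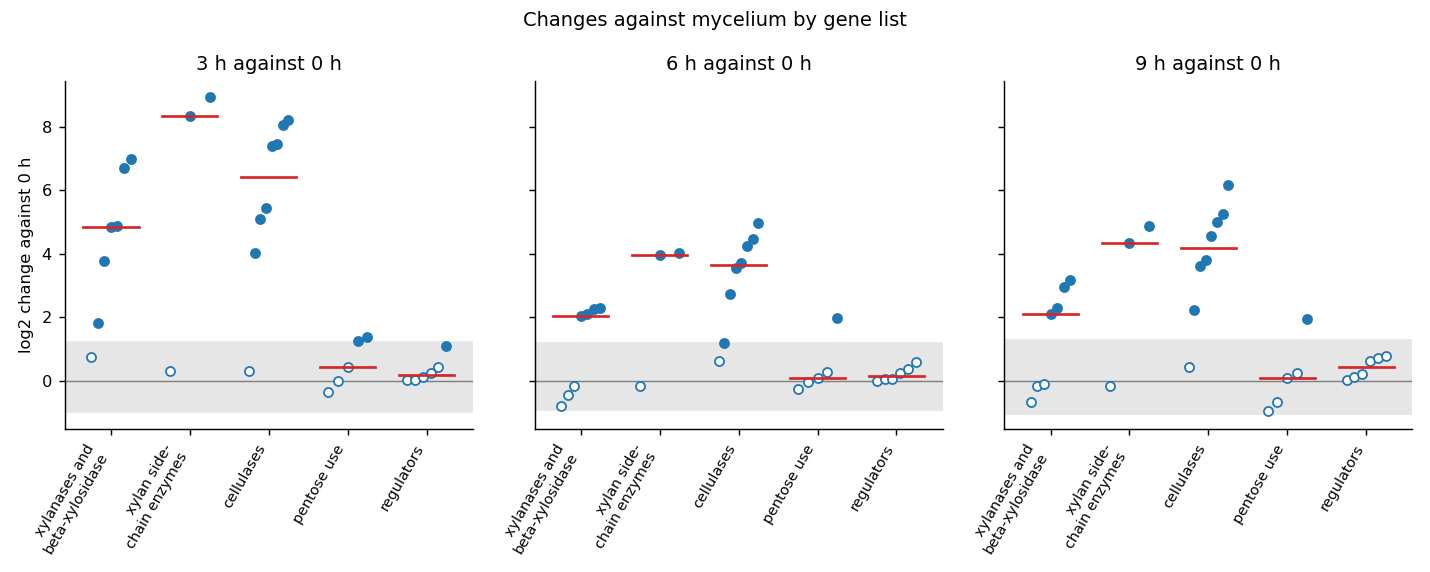
log2 change against 0 h of every gene in 5 lists, at 3, 6 and 9 h; filled points passed both thresholds, open points did not, red lines are list medians and the grey band spans the 5th to 95th percentile of all features. The xylanase and beta-xylosidase genes lie above the band in 6 cases at 3 h and in 4 at 6 and 9 h, while all the regulators lie inside it.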

How the data were processed

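Total RNA labelled with Cy3 was hybridised to a 1-colour NimbleGen array, per the labels' protocols. The authors deposited log2 expression values made with RMA, per the submitters' processing notes, as a mean and an SD per time, with 1 p-value per feature, per the file headers. The version of RMA and the genome build are not given in the sources used here. RMA gives all arrays the same distribution, so a change in total RNA cannot be seen. The other deposited table repeats these log2 means (largest difference 0).

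A one-way analysis of variance from the means and SDs with 2 replicas, adjusted by the Benjamini-Hochberg method, gave the authors' deposited p-value within 1% for 9015 of 9126 features (98.78%), and with 3 replicas for 14. The SD was therefore taken as that of 2 replicas, and 2 values per time with that mean and SD were entered into limma 3.58.1 (R 4.3.3). One model without covariates covered the 4 times, with 4 residual degrees of freedom and a prior of 3.82. Simulated data with known changes were used to test it.

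Gene symbols came from the RefSeq table of assembly v2.0 of strain QM6a, which lists 9094 of the features and gives a symbol for 235. Members, lists, the MAT1-1 gauge and tests were chosen with earlier results of these data known. One gene of the regulator list is not reported here. Genes named outside the 7 were members of the lists, or the 3 (for the median profile 5) nearest genes with a symbol. Alternatives were quantile normalization, median centring, a trended prior, a fit of 2 times, a plain test, a filter on dim features, other fold thresholds and the nearest replica values. A floor at the MAT1-1 level and the authors' p-value were added after seeing the data.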

Additional observations from a re-analysis of the deposited data

Results flagged for a closer look

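The change against mycelium differed between times in each of the 7 genes, by the direct test between those times (limma's moderated test, adjusted p under 0.05 and at least 2-fold). From 3 to 6 h the log2 difference was -1.55 for xyn1, -2.78 for xyn2, -4.22 for xyn5, -4.95 for xyn3, -2.01 for xyn4, -4.42 for TRIRE2_69276 and -2.57 for bxl1. From 3 to 9 h it was -2.77 for xyn2, -3.9 for xyn5, -4.03 for xyn3, -2.49 for xyn4, -3.54 for TRIRE2_69276 and -2.52 for bxl1. The log2 difference of xyn1 from 3 to 9 h, -0.91, passed the adjusted p alone.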

How the results depend on the processing

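The number of genes called in each comparison stayed within 1.5 times its value under the alternatives that were run, except from 6 to 9 h, where 3 of 7 passed with no fold threshold and 0 with it. Of 408 recomputed changes of single genes, 395 kept their direction and their side of the threshold. In 4 that had not passed, the nearest replica values overlapped and gave 0, which has no direction (xyn4 at 6 h and xyn5 at 9 h against mycelium, xyn2 and bxl1 from 6 to 9 h). A further 7 passed only without a fold threshold and 2 were lost at 4-fold, xyn4 at 3 h (1.83) and xyn1 from 3 to 6 h (-1.55). Only quantile normalization and median centring could have reversed a direction. The nearest replica values and the MAT1-1 floor can only shrink a change, and the other alternatives leave its size as it is. The kept directions are therefore mostly fixed in advance. Quantile normalization moved a change by at most 0.167 log2 units and median centring by 0.033. A filter at the 25th percentile of mean level, taken over all features, removed xyn5 and xyn1, the gene not called at 3 h. It left 5 of the 7, 5 of them called at 3 h, and the share called among all features kept was not computed. With the replica values of both times that lie nearest to each other, 6 of 7 still differed by 2-fold or more at 3 h and 7 of 7 from 3 to 6 h. The share of all features that did so was not computed. All 7 genes stayed highest at 3 h under quantile normalization and median centring. No paired analysis was possible because the columns carry no replicate numbers. Single arrays could not be left out, since the table gives means and SDs and does not say which value belongs to which array. What limits these values is 2 arrays per time and, for xyn5 and xyn1, signal near background.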
